A study of Mus musculus with 5 samples.

Results

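The heat shock protein genes examined here are 10 genes picked by name from the 30046 features of the deposited counts. Of these, 6 encode chaperones known as heat-inducible (*Hspa1a*, *Hspa1b*, *Hsph1*, *Dnajb1*, *Hspb1* and *Hsp90aa1*) and 4 encode chaperones that cells make constitutively (*Hspa8*, *Hsp90ab1*, *Hspd1* and *Hspe1*). All 10 were found in the counts by symbol, and all 10 entered the test. The counts come from bulk RNA-seq of 5 samples of tdTomato+ cells with high Cxcl12-GFP, sorted by flow cytometry from enzymatically dissociated femurs of mice at postnatal day 21. The 3 Dlx5 libraries (replicates 1, 2 and 3) come from mice with Cxcl12(GFP/+), Dlx5(CreER/+) and R26R(tdTomato/+), and the 2 Fgfr3 libraries (replicates 2 and 3, as labelled) from mice with Cxcl12(GFP/+), an Fgfr3-iCreER transgene and R26R(tdTomato/+). Both groups carry the GFP gene at the *Cxcl12* locus and received tamoxifen once, on embryonic day 12.5, so that tdTomato marks descendants of perichondrial cells in which the Dlx5 driver was active or of chondrocytes in which the Fgfr3 driver was active. Cells of littermates were pooled by genotype before sorting. The comparison addressed whether the marrow stromal cells of these origins, called CAR cells after their abundant CXCL12, differ in gene expression.

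Heat shock proteins bind unfolded or newly made proteins and help them fold, or hold them until they can be refolded or degraded. HSP70 proteins work in cycles of ATP hydrolysis that J-domain proteins start and nucleotide exchange factors end, and HSP90 proteins act later, on nearly folded clients such as kinases and steroid hormone receptors. When unfolded proteins accumulate, heat shock factor 1 binds arrays of GAA units upstream of the inducible genes and raises their transcription within minutes. The same genes are also known to be switched on by warm enzymatic digestion and sorting of tissue.

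The annotated positions of the members, on GRCm38, were as follows. *Hspa1a* (ENSMUSG00000091971) and *Hspa1b* (ENSMUSG00000090877) lie on the reverse strand of chromosome 17, at chr17:34969190-34972156 and chr17:34956436-34959238, as neighbouring copies of the inducible HSP70 gene. *Hspd1* and *Hspe1*, which encode the mitochondrial chaperonin and its lid, lie head to head on chromosome 1, at chr1:55077835-55088243 and chr1:55088132-55091307, and share 112 exonic bases on opposite strands. The RefSeq promoter table (GRCm38.p6) held windows of 250 bases before and 50 bases after a start site for 7 of the 10 members, 10 windows in all. Stretches upstream of the start are shown for *Hspa1a* and *Hspa1b*, because the division of counts between these copies differed between the lineages, and for *Hspb1* and *Hspe1*, because these inducible and constitutive members were called different between the lineages. They read 5′ to 3′ on the gene's own strand, and capitals mark matches to the GAA units GAANNTTC or TTCNNGAA.

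Hspa1a, chr17:34972157-34972326, reverse strand: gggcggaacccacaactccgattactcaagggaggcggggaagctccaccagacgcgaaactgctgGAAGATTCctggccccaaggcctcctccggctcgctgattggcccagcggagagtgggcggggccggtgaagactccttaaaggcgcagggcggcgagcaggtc
Hspa1b, chr17:34959239-34959408, reverse strand: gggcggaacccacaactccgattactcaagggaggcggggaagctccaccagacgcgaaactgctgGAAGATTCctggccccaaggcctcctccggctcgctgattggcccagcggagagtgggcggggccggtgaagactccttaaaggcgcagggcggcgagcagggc
Hspb1, chr5:135887787-135887844, forward strand: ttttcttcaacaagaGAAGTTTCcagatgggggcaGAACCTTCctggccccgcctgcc
Hspe1, chr1:55088053-55088082, forward strand: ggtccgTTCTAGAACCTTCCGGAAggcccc

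Over the 170 upstream bases shown, *Hspa1a* and *Hspa1b* differed at 1 base (T169G, counted from the 5′ end of the stretch with the *Hspa1a* base first), and over all 250 upstream bases at 3. Each had 1 match to a pair of GAA units, 104 bases upstream of its start. *Hspb1* had 2 such matches, 117 and 97 bases upstream. The *Hspe1* stretch held an uninterrupted array, in which the longer letters GAANNTTCNNGAA or TTCNNGAANNTTC matched 2 times in overlap. The same bases lie upstream of the second listed start of *Hspd1* and inside an exon of 1 annotated *Hspd1* transcript. *Hsph1* had matches in both of its windows, which overlap and hold the same matched bases. These include 1 longer array, which lies downstream of both starts. *Dnajb1* had matches in neither of its windows. On both strands, 15.1% of the 32851 mouse promoter windows held a pair of units and 0.603% held the longer array, which includes pairs. A match says only that these letters are present.

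Depth and sample composition set the frame for these values. Total counts were between 22035650 and 32563758 in the Dlx5 libraries and between 56355203 and 58166285 in the Fgfr3 libraries. According to the methods, the Dlx5 libraries were read as 150-base pairs and the Fgfr3 libraries as single 50-base reads on another sequencer, so that lineage, sequencer and read length cannot be told apart. The deposited counts do not hold read length, so this was not checked here. Compared between the groups, the driver sequences followed the labels. Counts of cre were 416 to 467 in the Dlx5 libraries against 1 in each Fgfr3 library. Counts of iCre.ERT2 were 3762 to 4802 in the Fgfr3 libraries against 451 to 521 in the Dlx5 libraries. Within each Dlx5 library, however, iCre.ERT2 had more counts than cre, and the cause was not tested. Among 8 CAR cell markers, 5 were called higher in Dlx5 cells and 1 (*Foxc1*) in Fgfr3 cells by the rule given below. Of all genes tested, 13.1% were called higher in Dlx5 cells and 16.4% in Fgfr3 cells. The summed levels of the CAR cell markers were 28896 to 30068 normalized CPM in Dlx5 and 7997 to 11811 in Fgfr3 libraries. All 10 leukocyte markers and all 8 neutrophil markers were called higher in Fgfr3 cells. Their summed levels were 375 to 461 against 1205 to 2571 CPM, and 2402 to 3004 against 6709 to 16508 CPM. For the neutrophil marker *Ly6g*, no Dlx5 library reached 10 CPM before normalization, the minimum for the test. It entered through the Fgfr3 libraries, where it is high, and with no filter on low counts its log2 fold change was 3.63. For chondrocyte markers the sums were 120.2 to 131 against 414 to 2976 CPM, and *Col9a1* was at 0 in every Dlx5 library. Osteoblast markers summed to 3726 to 5238 against 7218 to 9677 CPM, erythroid markers to 13404 to 27474 against 8466 to 12956 CPM, and endothelial markers to 17.2 to 33.3 against 23.4 to 30.8 CPM. The part of these cells in the differences below was not tested, and in bulk samples fewer cells of a type and less RNA per cell cannot be told apart.

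Of the 10 members, 3 were called higher in Dlx5 cells: *Hspa8*, *Hspb1* and *Hspe1*. A gene was called when edgeR's quasi-likelihood test gave a p, adjusted by Benjamini-Hochberg over all 10088 genes tested, under 0.05 and a log2 fold change over 1 in size, and 13.1% of all genes tested were called higher in Dlx5 cells by this rule. No member was called higher in Fgfr3 cells, against 16.4% of all genes tested. By edgeR's exact test 1 member was, *Hspa1b*. An unadjusted p under 0.05 was reached by 4 members, the 3 called and *Dnajb1*. Each log2 fold change takes Fgfr3 over Dlx5, and 9 of the 10 members had a negative value. The median was -0.51 for the 10 members, -0.51 for the 6 inducible and -0.63 for the 4 constitutive ones, beside 0.01 for all genes tested. The called genes were 1 of 6 inducible and 2 of 4 constitutive members. With Fgfr3 replicate 3 left out, 1 member (*Hspa8*) was called higher in Dlx5 cells.

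**Figure D1:**
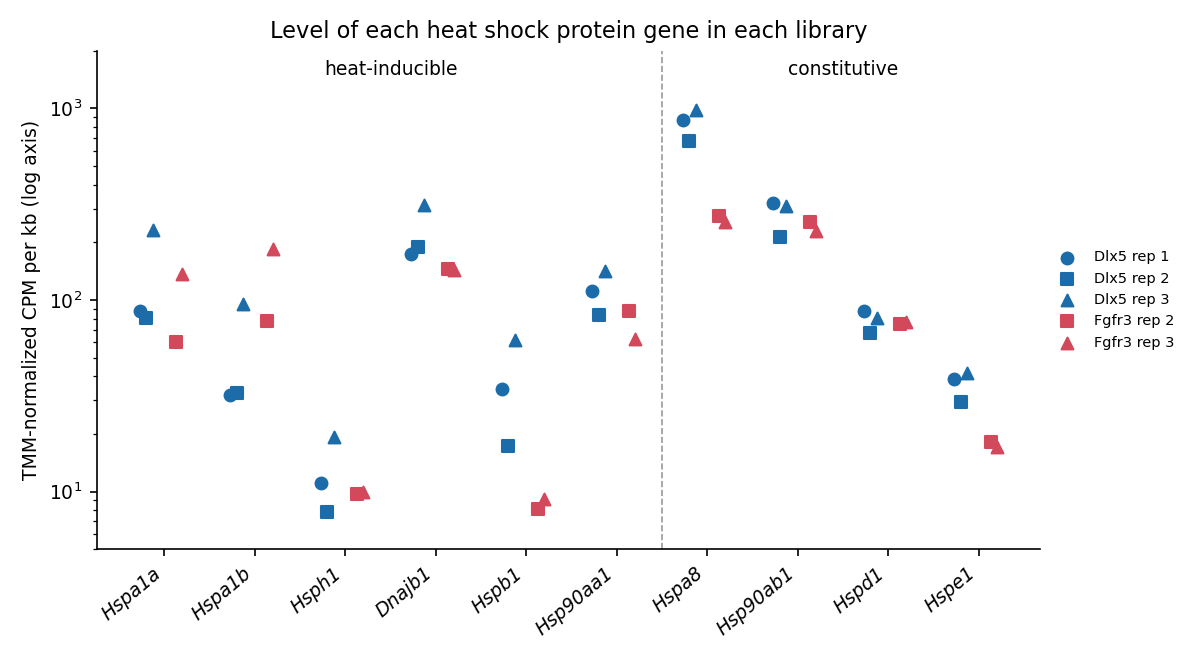
Level of each member in each library, as TMM-normalized CPM per kb of exon on a log axis, with Dlx5 libraries in blue, Fgfr3 libraries in red and one marker shape per replicate number. *Hspa8* stands highest in all 5 libraries, and Dlx5 replicate 3 (blue triangle) is the highest Dlx5 library for each of the 6 inducible members.

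Levels of different genes were compared per kb of exon. *Hspa8*, the constitutive HSP70, was the most abundant member in both lineages, at 841 ± 151 CPM per kb (SD, n = 3) in Dlx5 cells and 265 ± 12.5 (SD, n = 2) in Fgfr3 cells. Its level per kb ranked 39 among 10083 tested genes with a length in Dlx5 cells and 110 in Fgfr3 cells. In Dlx5 cells the order continued with *Hsp90ab1*, *Dnajb1*, *Hspa1a*, *Hsp90aa1*, *Hspd1*, *Hspa1b*, *Hspb1*, *Hspe1* and *Hsph1*. From *Hsp90ab1* down to *Hspe1*, the library ranges of neighbours in this order overlapped, whereas *Hspa8* lay above and *Hsph1* below their neighbour in every library. In Fgfr3 cells the order was *Hspa8*, *Hsp90ab1*, *Dnajb1*, *Hspa1b*, *Hspa1a*, *Hspd1*, *Hsp90aa1*, *Hspe1*, *Hsph1* and *Hspb1*. There, the ranges of neighbours overlapped from *Dnajb1* down to *Hsp90aa1* and were separate elsewhere. *Hsph1*, a relative of HSP70 that acts as its nucleotide exchange factor, was at 12.7 ± 5.87 CPM per kb (SD, n = 3) in Dlx5 and 9.85 ± 0.148 (SD, n = 2) in Fgfr3 cells. *Hspb1* ranked 1254 in Dlx5 cells and 5056 in Fgfr3 cells, the widest difference in rank of the 10 members.

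*Hspa8*, which folds proteins in unstressed cells and uncoats clathrin vesicles, had 3719.9, 2923 and 4213 normalized CPM in Dlx5 replicates 1, 2 and 3 and 1179 and 1103 in Fgfr3 replicates 2 and 3. Every Dlx5 library lay above both Fgfr3 libraries, as for 34.1% of all genes tested. The same held for 4 of the 10 members (*Hspa8*, *Hspb1*, *Hspe1* and *Dnajb1*), and for none did every Fgfr3 library lie above every Dlx5 library, as for 34.8% of all genes tested. The mean was 3.17 times as high in Dlx5 cells, and the log2 fold change was -1.67 (standard error, SE, 0.22, 95% interval -2.18 to -1.15, adjusted p = 0.00103, edgeR). *Hspa8* was called under all 20 alternatives tried. It is read together with many processed pseudogenes, whose counts are given below.

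The inducible HSP70 copies gave different answers one by one. *Hspa1a* had 258, 240.2 and 686 CPM in the Dlx5 libraries and 179 and 403 in the Fgfr3 libraries, so the groups overlapped. Its log2 fold change was -0.44 (95% interval -1.71 to 0.83, adjusted p = 0.531, edgeR). *Hspa1b* had 89.8, 92.1 and 268 CPM in the Dlx5 libraries and 219 and 517 in the Fgfr3 libraries, and the groups overlapped as well, through Dlx5 replicate 3. Its log2 fold change was 1.29 (95% interval -0.015 to 2.61, adjusted p = 0.0933, edgeR), and over the alternatives its adjusted p ran from 0.00713 to 0.492. Without Dlx5 replicate 3, the log2 fold change of *Hspa1b* was 2.01 with an adjusted p of 0.0075, and that of *Hspa1a* was 0.22 with an adjusted p of 0.674 (edgeR). With library size as the only scaling, *Hspa1b* passed both thresholds, at 1.51 (adjusted p = 0.0494, edgeR).

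The division of counts between the copies separated the lineages more sharply than the level of either. *Hspa1a* took 74.2%, 72.3% and 71.9% of the counts on both copies in the Dlx5 libraries and 45% and 43.8% in the Fgfr3 libraries. The 95% Wilson intervals, which cover counting error only, ran from 71.2% to 75.0% over the Dlx5 libraries and from 43.4% to 45.6% over the Fgfr3 libraries. The libraries of a lineage differed by little while the lineages lay far apart. The coding sequences of *Hspa1a* and *Hspa1b* were 99.4% identical, with 8 mismatched and 3 gapped bases, and their 3′ UTRs shared no 50-base window. Of the 50-base windows of their transcripts, 66.3% for *Hspa1a* and 62.3% for *Hspa1b* also occurred in another gene, and of the 150-base windows 46.0% and 40.5%. The part of read length in this division was not tested, and the count of each copy alone is uncertain.

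Summed over both copies, the inducible HSP70 level was 348, 332 and 954 CPM in the Dlx5 libraries and 397 and 920.4 in the Fgfr3 libraries. Replicate 3 of each lineage was high and the remaining libraries were close to each other. The highest Dlx5 library was 2.87 times the lowest, and the highest Fgfr3 library 2.32 times the lowest. Fitted as one gene, the log2 fold change was 0.27 (95% interval -1.0 to 1.55, adjusted p = 0.703, edgeR), an interval that spans both signs.

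**Figure D2:**
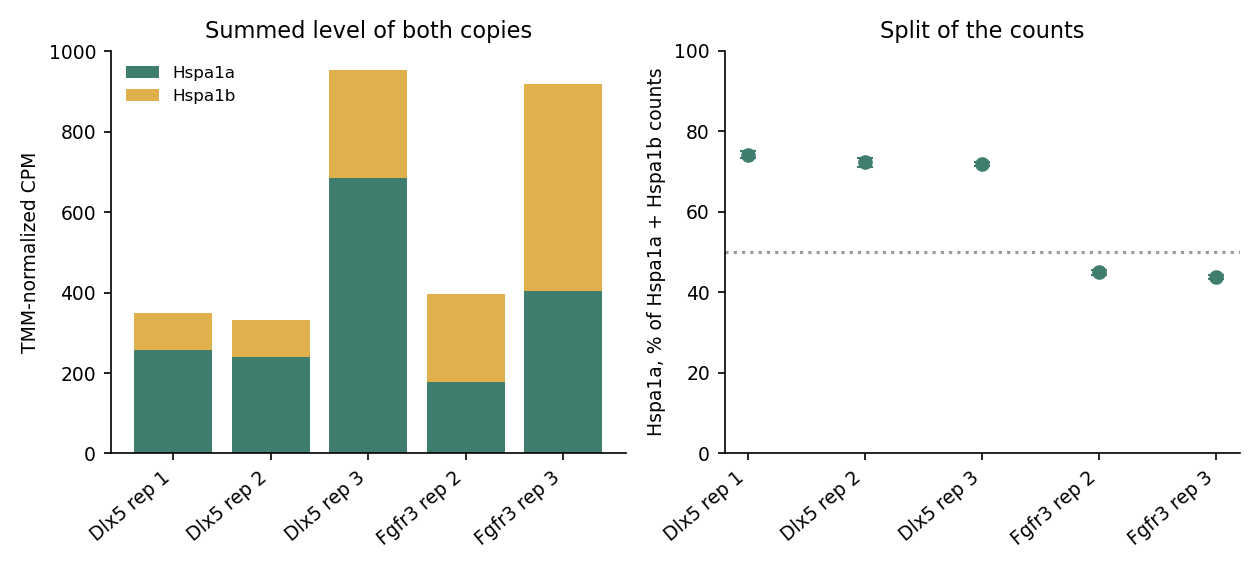
Left, stacked bars of TMM-normalized CPM of *Hspa1a* and *Hspa1b* in each library; right, percent of the counts on both copies that were assigned to *Hspa1a*, with 95% Wilson intervals and a dotted line at equal division. The sum is high in replicate 3 of each lineage (954 and 920.4 CPM), while the percentage separates the lineages (71.9% to 74.2% against 43.8% to 45%).

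*Dnajb1*, the J-domain protein that works with the inducible HSP70, had 560.2, 605 and 1003 CPM in the Dlx5 libraries and 462 and 458 in the Fgfr3 libraries. Every Dlx5 library lay above both Fgfr3 libraries, but the log2 fold change of -0.65 did not pass the test (SE 0.27, adjusted p = 0.0867, edgeR). Without Dlx5 replicate 3, the log2 fold change of *Dnajb1* was -0.35. *Hsph1* had 80.7, 57.2 and 140.0 CPM in the Dlx5 libraries and 70.8 and 72.3 in the Fgfr3 libraries, so the groups overlapped. Its log2 fold change was -0.37 (95% interval -1.19 to 0.45, adjusted p = 0.408, edgeR), and 0.047 without Dlx5 replicate 3.

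*Hspb1*, a small heat shock protein that holds unfolded proteins without using ATP and is tied to the actin cytoskeleton, had the largest fold change of the members. It had 35.5, 17.9 and 63.8 CPM in the Dlx5 libraries and 8.32 and 9.40 in the Fgfr3 libraries. The groups did not overlap, although the Dlx5 libraries themselves spanned 3.56-fold. The log2 fold change was -2.14 (SE 0.51, 95% interval -3.34 to -0.95, adjusted p = 0.0119, edgeR). *Hspb1* entered the test through the Dlx5 libraries. On CPM without the TMM factors, which the filter used, 1 Fgfr3 library reached the minimum of 10 and the lower one stood at 9.09. Without Fgfr3 replicate 2 the log2 fold change of *Hspb1* was -1.98 with an adjusted p of 0.0706 (edgeR), and without Fgfr3 replicate 3 it was -2.17 with an adjusted p of 0.0658 (edgeR), so that the size stayed close while the call was lost.

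Of the HSP90 genes, *Hsp90aa1*, the inducible form, had 437, 327 and 555 CPM in the Dlx5 libraries and 343 and 247 in the Fgfr3 libraries. *Hsp90ab1*, the constitutive form, had 959, 641 and 927 CPM in the Dlx5 libraries and 768 and 691 in the Fgfr3 libraries. Both overlapped between the lineages, *Hsp90aa1* through Dlx5 replicate 2 and *Hsp90ab1* through the same library. The log2 fold changes were -0.57 (95% interval -1.19 to 0.038, adjusted p = 0.108, edgeR) for *Hsp90aa1* and -0.21 (95% interval -0.71 to 0.29, adjusted p = 0.453, edgeR) for *Hsp90ab1*. Per kb, *Hsp90aa1* stood at 0.35, 0.39 and 0.46 times the level of *Hsp90ab1* in the Dlx5 libraries and at 0.34 and 0.27 times in the Fgfr3 libraries.

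The mitochondrial partners differed from each other. *Hspe1*, the co-chaperonin that caps the folding chamber, had 56.8, 43.4 and 60.9 CPM in the Dlx5 libraries and 26.7 and 25.1 in the Fgfr3 libraries, without overlap. Its log2 fold change was -1.05 (SE 0.19, 95% interval -1.50 to -0.61, adjusted p = 0.00388, edgeR), just past the fold change threshold. *Hspe1* lay under that threshold with 7 of 20 alternatives, among them library size as the only scaling (-0.84), a length trend removed (-0.87), the counts of its copies added, a protein-coding one included (-0.88), Dlx5 replicate 3 left out (-0.96) and Fgfr3 replicate 3 left out (-0.95). *Hspd1*, the chaperonin itself, had 232, 179 and 213 CPM in the Dlx5 libraries and 197 and 203 in the Fgfr3 libraries. These overlapped, and the log2 fold change was -0.056 (95% interval -0.42 to 0.31, adjusted p = 0.787, edgeR).

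**Figure D3:**
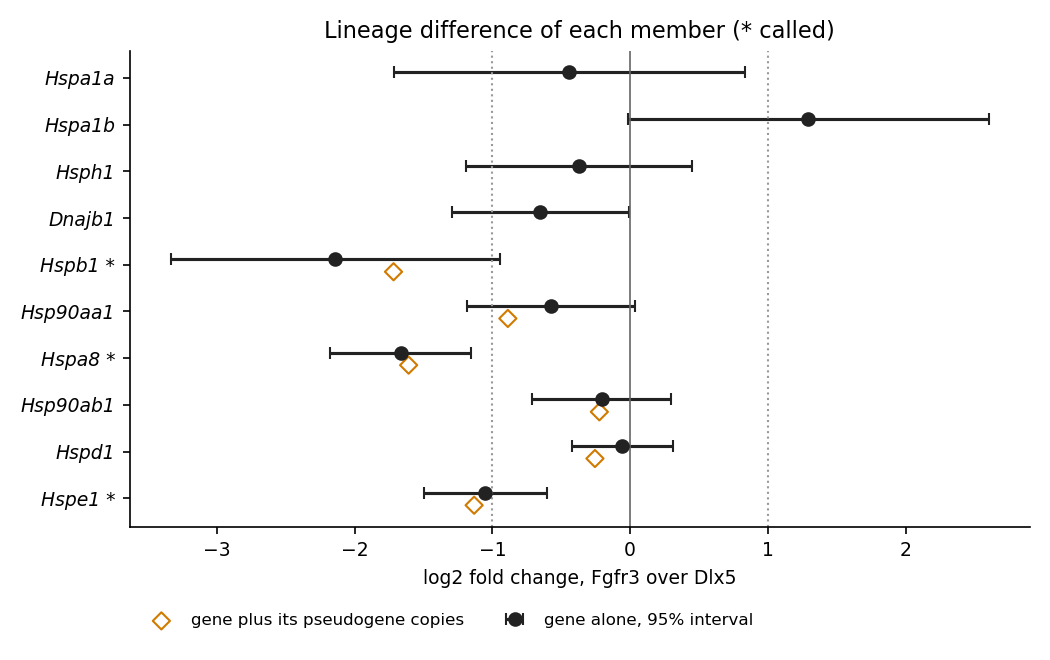
Log2 fold change (Fgfr3 over Dlx5) of each member with its 95% interval (filled circles), and the value when the counts of pseudogene copies are added (open diamonds), with dotted lines at the fold change threshold and asterisks at the 3 members called. *Hspb1*, *Hspa8* and *Hspe1* lie left of the threshold with and without their pseudogene copies, and *Hspa1b* has the single positive value, with an interval that reaches 0.

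Ratios taken within a library do not depend on the scaling between libraries. Per kb, the summed inducible HSP70 stood at 0.14, 0.17 and 0.33 times the level of *Hspa8* in the Dlx5 libraries and at 0.50 and 1.25 times in the Fgfr3 libraries. Every Fgfr3 library was above every Dlx5 library, and replicate 3 was the highest of each lineage. With the counts of the pseudogene copies added to *Hspa8*, this ratio was 0.076, 0.090 and 0.19 in the Dlx5 libraries and 0.27 and 0.66 in the Fgfr3 libraries. With the longest transcript as length it ran from 0.10 to 0.25 in Dlx5 and from 0.37 to 0.92 in Fgfr3 libraries, so that the value above 1 in Fgfr3 replicate 3 depends on these choices while the lineages did not overlap under either. For *Hspd1* over *Hspe1* the ratio was 2.28, 2.30 and 1.95 in the Dlx5 libraries and 4.12 and 4.50 in the Fgfr3 libraries, again without overlap. With all copies added, the protein-coding one of *Hspe1* included, it ran from 1.76 to 2.16 in Dlx5 and from 3.04 to 3.08 in Fgfr3 libraries. Over all members, the inducible genes made up 25.6%, 29.3% and 37.9% of the summed level per kb in the Dlx5 libraries and 38.4% and 48.4% in the Fgfr3 libraries, so that Dlx5 replicate 3 and Fgfr3 replicate 2 were close. With all copies added, these percentages were 19.3%, 21.5% and 29.4% against 31.2% and 40.3%. The inducible sum itself overlapped between the lineages, at 411.0 to 862.2 CPM per kb in Dlx5 and 387.7 to 545.2 in Fgfr3 libraries. The constitutive sum, which holds *Hspa8*, did not overlap, at 990.4 to 1410.7 against 580.7 to 622.8. On its own, *Hspa8* averaged 841 CPM per kb in Dlx5 and 265 in Fgfr3 cells. The part of *Hspa8* in the inducible share was not tested. No test was run on these ratios, which combine genes named here by choice.

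**Figure D4:**
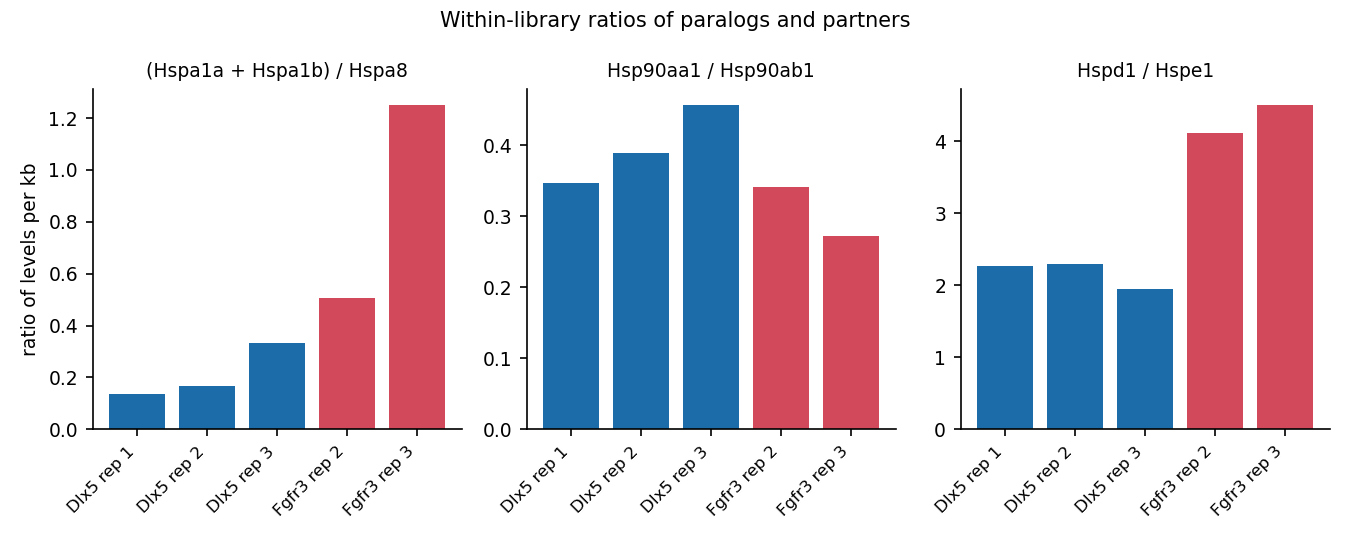
Ratios of levels per kb within each library (bars from 0, Dlx5 in blue, Fgfr3 in red) for summed *Hspa1a* and *Hspa1b* over *Hspa8*, *Hsp90aa1* over *Hsp90ab1*, and *Hspd1* over *Hspe1*. The first ratio runs from 0.14 to 0.33 in Dlx5 and from 0.50 to 1.25 in Fgfr3 libraries, and the third from 1.95 to 2.30 and from 4.12 to 4.50.

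Several members have processed pseudogenes, copies of the mRNA inserted elsewhere in the genome, to which reads can be assigned. Under a rule of at least 10 shared windows of 50 bases, 28 such copies of 6 members were found in the counts, 10 of *Hspa8*, 8 of *Hspd1*, 4 of *Hsp90ab1*, 3 of *Hsp90aa1*, 2 of *Hspe1* and 1 of *Hspb1*. *Hsph1* and *Dnajb1* had none. On normalized CPM, every Dlx5 library lay above both Fgfr3 libraries for 26 of the 28, and the remaining 2 overlapped. On CPM without the TMM factors the number was 25, since *Gm15459*, the copy with the most counts, then overlapped. Among all genes tested the share was 34.1%, but these exclude pseudogenes and genes of low counts, and no share over other pseudogenes was taken.

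The *Hspa8* copies held between 43.4% and 47.0% of the counts on *Hspa8* and its copies in all 5 libraries, but not on the same copies. In the Fgfr3 libraries nearly all of these counts were on *Gm15459*, with 63141 and 61767 counts, beside 42323, 23047 and 39179 in the Dlx5 libraries. *Gm6210* had 16824, 10258 and 14310 counts in the Dlx5 libraries and 64 and 36 in the Fgfr3 libraries, and *Gm8355* had 12824, 7664 and 10657 against 31 and 13. Thus the counts were spread over many copies in the Dlx5 libraries and gathered on one copy in the Fgfr3 libraries. The part of read length in this difference cannot be told apart from lineage.

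For *Hsp90aa1*, the copies held 20.3%, 21.3% and 20.4% of the counts in the Dlx5 libraries and 1.65% and 0.949% in the Fgfr3 libraries. For *Hspd1* these shares were 12.6% to 14.8% against 0.465% to 0.598%, and for *Hspe1* 4.76% to 6.45% against 0% to 0.605%. *Hspb1* went the other way, with 14.7% to 19.0% of the counts on *Hsp25-ps1* in the Dlx5 libraries and 36.9% to 37.8% in the Fgfr3 libraries. When the copies were added to their gene, an alternative chosen after seeing the data, the same 3 members were called, with log2 fold changes of -1.61 for *Hspa8*, -1.72 for *Hspb1* and -1.13 for *Hspe1*. *Hsp90aa1* then had a log2 fold change of -0.89 with an adjusted p of 0.0274 (edgeR), under the fold change threshold.

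A pair of single-exon genes annotated as protein-coding on another chromosome share sequence with a member in the same way. *AC117239.2*, annotated as a retrogene, shares 17.9% of the 50-base windows of *Hspe1*, more than either of its pseudogene copies. It had 248, 227 and 323 counts in the Dlx5 libraries and 590 and 743 in the Fgfr3 libraries, or 7.62, 10.3 and 11.9 against 10.5 and 12.8 CPM without the TMM factors, so that these levels overlapped. *Gm9817* shares 38.3% of the windows of *Hspb1* and had 36, 9 and 31 counts against 1 and 0. With these genes added as well, also an alternative chosen after seeing the data, *Hspe1* was no longer called, at -0.88 (SE 0.17, adjusted p = 0.00585, edgeR), and *Hspa8* and *Hspb1* remained called at -1.61 and -1.75. The call of *Hspe1* therefore depends on whether the counts of this copy are added.

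**Figure D5:**
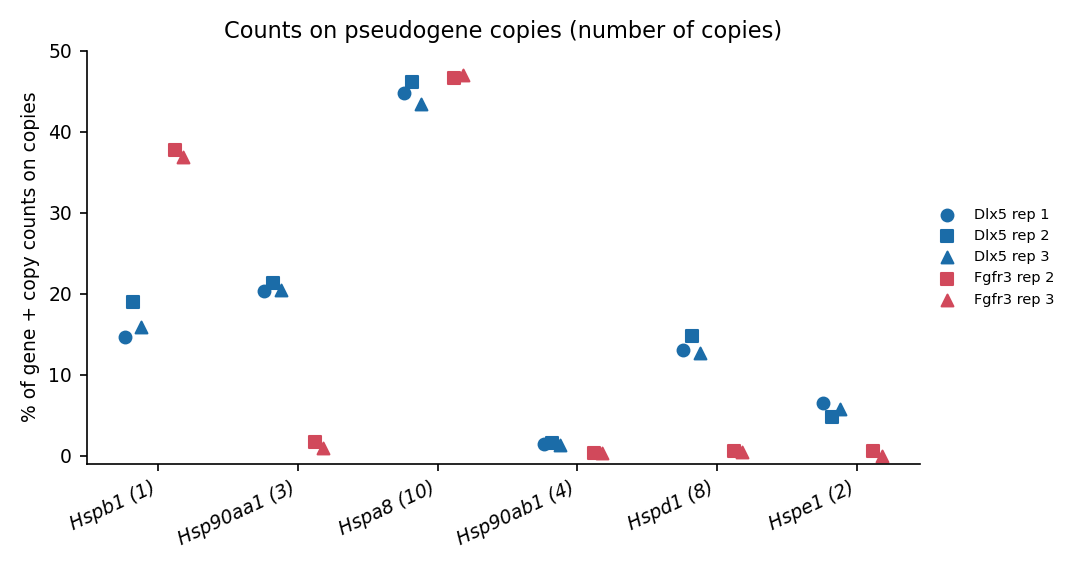
Percent of the counts on a gene and its pseudogene copies that were assigned to the copies, for the 6 members with copies (number of copies in brackets), with Dlx5 libraries in blue and Fgfr3 libraries in red. The share is alike for *Hspa8* (43.4% to 47.0%), larger in Dlx5 libraries for *Hsp90aa1*, *Hsp90ab1*, *Hspd1* and *Hspe1*, and larger in Fgfr3 libraries for *Hspb1*.

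Spread between replicates was itself uneven among the members. The SD of log2 CPM over the Dlx5 libraries was 0.92 for *Hspb1*, 0.90 for *Hspa1b*, 0.85 for *Hspa1a* and 0.65 for *Hsph1*, against a median of 0.16 over the tested genes. For the constitutive members it ran from 0.19 (*Hspd1*) to 0.32 (*Hsp90ab1*). Dlx5 replicate 3 was the highest Dlx5 library for 6 of 6 inducible and 2 of 4 constitutive members, and for 30.7% of the tested genes. Its level over the mean of replicates 1 and 2 was 2.94 for *Hspa1b*, 2.75 for *Hspa1a*, 2.39 for *Hspb1*, 2.03 for *Hsph1*, 1.72 for *Dnajb1* and 1.45 for *Hsp90aa1*. Among 18 immediate early genes, which answer acute stimulation and cell handling, all 18 were highest in Dlx5 replicate 3 as well, with a median ratio of 1.52. Their summed level was 18458, 18954 and 27968 CPM in the Dlx5 libraries and 12313 and 10748 in the Fgfr3 libraries. The part of tissue handling in the levels of the inducible members was not tested.

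Fgfr3 replicate 3 did not follow the same pattern. It was 2.26 times replicate 2 for *Hspa1a* and 2.36 times for *Hspa1b*, but 1.02 times for *Hsph1*, 0.99 times for *Dnajb1* and 0.72 times for *Hsp90aa1*. Higher in Fgfr3 replicate 3 than in replicate 2 were 4 of the 6 inducible members and 5 of the 18 immediate early genes, beside 48.5% of the tested genes. The ratio was 1.13 for *Hspb1* and between 0.90 and 1.03 for the 4 constitutive members. Of the marker sums above, Fgfr3 replicate 3 exceeded replicate 2 for leukocytes (2571 against 1205 CPM) and neutrophils (16508 against 6709). The same held for osteoblasts, erythroid and endothelial cells. It was lower for CAR cells (7997 against 11811) and chondrocytes (414 against 2976). The part of these cells in the levels of *Hspa1a* and *Hspa1b* was not tested.

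Of the immediate early genes, 6 were called higher in Dlx5 cells and 3 in Fgfr3 cells. *Fosb*, *Btg2* and *Jun* had log2 fold changes of -2.35, -1.81 and -1.67, and *Jund*, *Klf2* and *Ier5* of 3.98, 2.19 and 1.80. These encode transcription factors or rapid-response regulators. The called genes were 33.3% and 16.7% of the list, beside 13.1% and 16.4% of all genes tested, and the median log2 fold change of the list was -0.64, beside 0.01.

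The tested genes whose profile over the 5 libraries lay nearest to that of *Hspa1a*, by Euclidean distance of centred log2 CPM, were *Scand1* (0.53), *Raly* (0.74) and *Atf3* (0.78). *Atf3*, a stress-response transcription factor, had 149, 137 and 282 CPM in the Dlx5 libraries and 112 and 134 in the Fgfr3 libraries. With 5 points that share library and depth, this likeness is a description.

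Of the heat shock factors, 3 were tested and 1 was called higher in Dlx5 cells, as were 13.1% of all genes tested. *Hsf1*, the main activator of the inducible genes, had 108, 98.1 and 109 CPM in the Dlx5 libraries and 85.4 and 83.6 in the Fgfr3 libraries, a log2 fold change of -0.32 that did not pass the test (adjusted p = 0.0758, edgeR). *Hsf2*, which can bind the same elements in development, had 22.2, 15.9 and 19.4 CPM in the Dlx5 libraries and 4.57 and 2.27 in the Fgfr3 libraries, and was called at -2.49 (SE 0.37, adjusted p = 0.00174, edgeR). No Fgfr3 library reached the minimum of 10 CPM for *Hsf2*, which entered the test through the Dlx5 libraries, where it is high, and with no filter on low counts its adjusted p was 0.00147 (edgeR). *Hsf4* and *Hsf5* stayed under 2.5 CPM in every library and were not tested. *Hsbp1*, which binds heat shock factor 1 and restrains it, had a log2 fold change of -0.25 (adjusted p = 0.132, edgeR).

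Other chaperone genes were counted over lists of 114 genes without the members, of which 110 were in the counts and 90 were tested. Of these, 9 (10%) were called higher in Dlx5 cells and 7 (7.78%) in Fgfr3 cells, against 13.1% and 16.4% of all genes tested, and their median log2 fold change was 0.03. Of the called genes, 1 of the 9 (*Hsf2*) and 3 of the 7 (*Bag1*, *Dnajc21* and *Dnaja4*) passed the filter only through the lineage in which they were higher. None of 8 further HSP70 and HSP110 genes was called, among them *Hspa5*, the HSP70 of the endoplasmic reticulum, at -0.60, and *Hspa9*, that of mitochondria, at -0.12. No further small heat shock protein gene passed the filter on low counts, and *Cryab* had 1.92 to 4.43 CPM over the 5 libraries. *Hspb9* had 0 counts in every Dlx5 library and 12 and 4 in the Fgfr3 libraries, and *Dnajc22* had 0 against 43 and 6. *Hspa1l* was at 0 in Dlx5 replicate 1 and *Hspb2* in Dlx5 replicate 3.

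Among 34 J-domain genes tested, 4 (11.8%) were called higher in Fgfr3 cells and 3 (8.82%) in Dlx5 cells. Of all genes tested, 16.4% and 13.1% were called in these directions. *Dnajc21*, a factor of ribosome assembly, had 6.49, 6.59 and 5.25 CPM in the Dlx5 libraries and 35.1 and 35.0 in the Fgfr3 libraries, a log2 fold change of 2.52. *Dnaja4* had 7.27, 9.56 and 10.4 CPM against 41.9 and 45.6, at 2.27. No Dlx5 library reached 10 CPM before normalization for *Dnajc21* or *Dnaja4*, and with no filter on low counts their log2 fold changes were 2.52 and 2.27. *Dnajc2* was called at 1.58. In the other direction were *Dnajb9*, a partner of the endoplasmic reticulum HSP70, at -1.65, *Dnajc30* at -1.17 and *Dnajc18* at -1.07.

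Among 10 nucleotide exchange factors and HSP70 partners, *Bag1*, which releases clients from HSP70, had the largest log2 fold change of the tested genes in the chaperone lists. It had 4.31, 5.70 and 7.0 CPM in the Dlx5 libraries and 138 and 159 in the Fgfr3 libraries, a log2 fold change of 4.71 (SE 0.23, adjusted p = 4.28e-05, edgeR). *Bag1* was under 10 CPM in every Dlx5 library and entered the test through the Fgfr3 libraries, and without a filter on low counts it stood at the same 4.71 (adjusted p = 2.33e-05, edgeR). *St13*, the HSP70-interacting protein that bridges to HSP90, was called higher in Dlx5 cells at -1.05. Of 16 other HSP90 genes and cochaperones, *Fkbp5*, a glucocorticoid-responsive cochaperone of steroid receptors, was called higher in Fgfr3 cells at 1.25. *Cdc37l1*, *Fnip1* and *Tsc1* were called higher in Dlx5 cells at -1.26, -1.20 and -1.02. The called shares in Dlx5 and Fgfr3 cells were 10% and 10% of the exchange factors and partners. They were 18.8% and 6.25% of the HSP90 genes and cochaperones, beside 13.1% and 16.4% of all genes tested.

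Of 13 cytosolic chaperonin and prefoldin genes, 1 was called, *Pfdn5*, which had 82.5, 79.7 and 90.4 CPM in the Dlx5 libraries and 30.4 and 29.6 in the Fgfr3 libraries, at -1.49. Of 9 mitochondrial chaperones and proteases, 1 was called, *Lonp1*, a matrix protease, at 1.31. *Pfdn5* was 7.69% of its list and *Lonp1* 11.1% of its own. Of all genes tested, 13.1% were called higher in Dlx5 cells and 16.4% in Fgfr3 cells. Of 20 other targets of heat shock factor 1 that were tested, 2 (10%) were called higher in Dlx5 cells, *Ubb* and *St13*. In Fgfr3 cells 1 (5%) was called higher, *Dnaja4*, and both shares are under those of all genes tested. *Ubb*, a polyubiquitin gene, had 8004, 7879 and 8448 CPM in the Dlx5 libraries and 2019 and 2909 in the Fgfr3 libraries, a log2 fold change of -1.72 (adjusted p = 0.0011, edgeR). The median over these 20 targets was -0.01. Dlx5 replicate 3 was the highest Dlx5 library for 5 of them, unlike the inducible members.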

How the data were processed

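Reads of 5 libraries were aligned by the authors to mm10 with TopHat2 2.0.13 and Bowtie2 2.2.1 (submitters' processing notes), and the deposited counts are whole reads per gene, without normalization. HTSeq is among the listed tools, and its strand setting is not given in the sources used here, so reads of overlapping genes on opposite strands cannot be told apart. A depth-normalized table and rlog values were also deposited and were not used. Both the members and the lists were chosen with earlier results of these data known.

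The lineages were compared in R 4.3.3 by edgeR 4.0.16 (TMM, quasi-likelihood test, no covariate) for protein-coding genes and reporters with at least 10 CPM in at least 2 libraries, with Benjamini-Hochberg adjustment. Intervals are 95% from the standard error and its degrees of freedom. Replicates are separate pools of cells, and no pair agreed within sampling noise. Levels per kb used the union of exons of GENCODE M21, in which 29965 identifiers were found. On simulated counts for Fgfr3 over Dlx5, 200 of 200 changed genes and 0 unchanged genes were called among 9860 tested. The simulation gave every gene the same fixed spread and set changes well beyond the fold change threshold in well-expressed genes. It therefore checks the code and the direction only, and does not measure how reliable the calls of uneven or borderline members are. The text names all members, up to 3 called genes per list and direction with the largest fold change, heat shock factors, listed genes at 0, the drivers, copies sharing sequence, and the 3 profiles nearest to *Hspa1a*. *Hspa5*, *Hspa9*, *Cryab* and *Col9a1* were named after their values were seen. Alternatives used DESeq2 1.42.0 and limma 3.58.1, other scalings, filters and features, trends on GC content or length removed, a replicate block, left-out libraries and, chosen after seeing the data, 2 ways of adding the counts of copies. Figures were drawn with matplotlib 3.10.9.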

Additional observations from a re-analysis of the deposited data

Results flagged for a closer look

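Counts on features that the lineage comparison does not use, the pseudogene copies of the members, lay above the 3 counts that a count of 0 allows. In the highest library they reached 92547 counts for the copies of *Hspa8*, 3577 for *Hsp90aa1*, 1060 for *Hspd1*, 438 for *Hsp90ab1*, 349 for *Hspb1* and 120 for *Hspe1*. The highest library was a Dlx5 library for every member but *Hspb1*, whose copy reached its highest count in Fgfr3 replicate 3.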

How the results depend on the processing

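The 20 alternatives gave 198 values for the 10 members, of which 176 kept their direction and whether they were called, 9 lost and 4 gained a call, and 9 changed sign. Of the 176, 7 crossed the adjusted p threshold alone, *Dnajb1* in 3 (0.0372 with DESeq2's Wald test, 0.04996 with the GC trend removed and 0.0316 with the block as well), *Hsp90aa1* in both sums with copies (0.0274), and *Hspa1a* (0.0179) and *Hspa1b* (0.0127) with the block and the GC trend removed. *Hspa8* stayed called and *Dnajb1* and *Hsp90aa1* not called throughout, with log2 fold changes of -1.80 to -1.45, -0.85 to -0.35 and -0.89 to -0.30. No member called in the comparison changed sign. *Hspb1* was no longer called without Fgfr3 replicate 2 or 3, at -1.98 and -2.17, and *Hspe1* in 7 of 20 alternatives, among them the sum with pseudogene and protein-coding copies (-0.88). *Hspd1* changed sign with library size as the only scaling (0.15), with the replicate block (0.036), with the block and the GC trend removed (0.044), without Dlx5 replicate 1 (0.028) and without Fgfr3 replicate 2 (0.038), within a left-out range of -0.16 to 0.038, and *Hsp90ab1* with library size as the only scaling (0.0046). *Hspa1a* changed sign without Dlx5 replicate 3 (0.22) and without Fgfr3 replicate 2 (0.11), within a left-out range of -1.08 to 0.22, and *Hsph1* without Dlx5 replicate 3 (0.047), within -0.63 to 0.047. The cause was not tested.

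Members called higher in Fgfr3 cells numbered 1 in place of 0, *Hspa1b*, with library size as the only scaling, with edgeR's exact test, with the replicate block and without Dlx5 replicate 3 (0 to 1 over left-out libraries). Members called higher in Dlx5 cells numbered 1 to 3 over left-out libraries, 1 without Fgfr3 replicate 3. Library size as the only scaling moved the median log2 fold change of all genes from 0.01 to 0.22 and left 4 listed chaperone genes called higher in Dlx5 cells in place of 9. With no fold change threshold, 2363 and 2517 genes and 16 and 13 listed chaperone genes were called higher in Dlx5 and Fgfr3 cells. Over left-out libraries, genes called higher in Fgfr3 cells numbered 997 to 1680, and listed chaperone genes 5 to 9 in Dlx5 and 4 to 8 in Fgfr3 cells, lowest without Fgfr3 replicate 3. A lone Fgfr3 library was then assumed to vary like the Dlx5 libraries.

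Replicate numbers are shared by the groups but mark different pools. Deviations of same-numbered libraries correlated at 0.12 (replicate 2) and -0.049 (replicate 3). With 2 Fgfr3 libraries, their deviations from the group mean mirror each other. Each Dlx5 library then gives the same value with both signs, so these correlations cannot show or exclude pairing. With the replicate number as a block, 2 members were called higher in Dlx5 cells and 1 in Fgfr3 cells. Over all genes, 1382 and 1678 were called, and *Hspa1b* had a log2 fold change of 1.10 (adjusted p = 0.00713, edgeR). Dlx5 replicate 1 has no same-numbered Fgfr3 library, so the lineage difference in this fit rests on replicates 2 and 3 alone. Using the longest transcript in place of the union of exons moved 10 of 20 levels per kb by more than 1 SD.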
